A study of Arabidopsis thaliana with 12 samples.

Results

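The genes described here encode proteins of the plastid ribosome in Arabidopsis thaliana and were measured by 4 probes on an array of 3439, of which 692 were listed with a single gene, standing for 691 genes. A row was taken where the platform annotation lists AT3G13120, AT1G64510, AT3G54210 or AT1G29070 and no other gene, and each of the 4 had 1 such probe. Wild-type plants of ecotype Columbia 0 were compared in 6 samples at normal CO2 and 6 samples that had spent 48 h at a CO2 content of 0.003% by volume. No transgene, mutation or other treatment is given for either group, and the labels state neither the tissue nor the age of the plants nor any pooling. Sample titles place all normal CO2 samples at day 0 and all low CO2 samples at day 2, so the effects of CO2 and of elapsed time cannot be told apart. Nothing in the labels says that the 6 samples of a group were separate plants or cultures, and p-values therefore measure sample-to-sample spread alone, part or all of which may be technical.

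Plastids descend from cyanobacteria and keep a ribosome of bacterial type, which makes the proteins encoded in the plastid genome, among them the large subunit of Rubisco and the core proteins of both photosystems. Most of its proteins are encoded in the nucleus, made in the cytosol and imported, while the rest and the ribosomal RNAs come from the plastid itself. The small subunit decodes the messenger RNA, and the large subunit forms the peptide bond and holds the tunnel through which the new chain leaves. AT3G13120 encodes protein S10, which in bacteria lies in the head of the small subunit, and AT1G64510 encodes S6, which in bacteria pairs with S18 on the platform of that subunit. AT3G54210 encodes L17, which in bacteria lies near the exit of the tunnel, and AT1G29070 encodes L34, a short, very basic protein of the large subunit. These protein names are general knowledge about the loci; the files and the reference give the locus identifiers alone. The genes are called PRPS10, PRPS6, PRPL17 and PRPL34 below.

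The arrays of the groups differed as a whole. The array medians of the deposited intensities, which are on a linear scale in arbitrary units, were 0.489 to 0.576 at normal CO2 and 0.343 to 0.373 at low CO2, whereas the array means averaged 1.07 and 1.02. Arrays were therefore quantile normalized for the tests, which sets each gene against all probes of its array. Over all probes the fold changes had a median of -0.60 (log2) on the deposited scale and of -0.05 after quantile normalization. Both scales are given for each gene, because the calls of both small subunit genes depend on the choice between them.

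**Figure D1:**
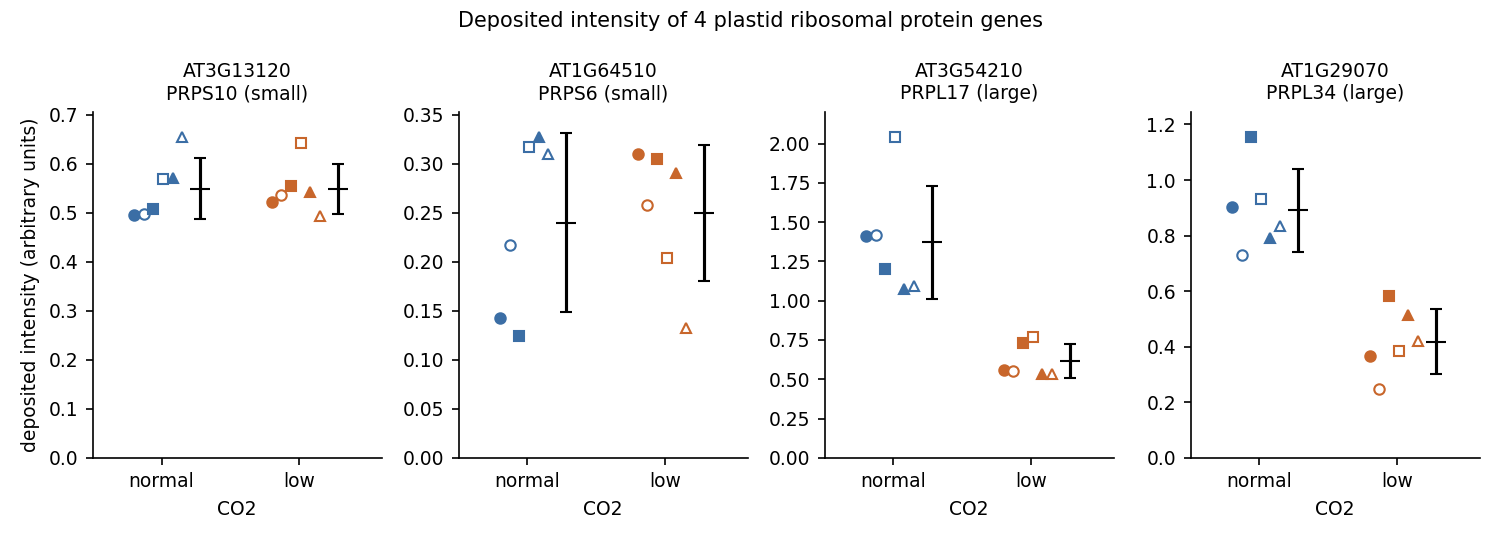
Deposited intensity of each gene in each of the 12 samples, by CO2 group (blue normal, orange low), with the group mean and SD in black. Circles are replicate numbers 1 and 2, squares 3 and 4, triangles 5 and 6, with even numbers open; each panel has its own linear axis from 0. Both large subunit genes separate by group, and both small subunit genes overlap.

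Relative to all probes, both small subunit genes were higher at low CO2 and both large subunit genes were lower, whereas on the deposited scale PRPS10 was at -0.00045 and PRPS6 at 0.10 and neither passed. PRPS10 rose by 0.50 ± 0.10 on the log2 scale (SE, n = 6 per group, limma adjusted p = 0.00179) and PRPS6 by 0.74 ± 0.27 (adjusted p = 0.0462). PRPL17 changed by -0.77 ± 0.19 (adjusted p = 0.00592) and PRPL34 by -0.65 ± 0.21 (adjusted p = 0.0240). In fold terms these are 1.41 and 1.67 upward and 1.70 and 1.57 downward. They are changes of ordinary size for this data set, as between 50.3% and 66.0% of all probes had a larger absolute fold change. The same threshold was passed by 42.4% of all probes, 18.9% upward and 23.5% downward. On the deposited scale 48.7% passed, 37.9% of all probes downward. Only 6 plastid ribosomal protein genes had a probe of their own, and the 4 described here are those of the 6 that passed in an earlier analysis of these data. That all of them pass is thus fixed by the choice. The array measures RNA per sample, so that fewer cells expressing a gene and less RNA per cell cannot be told apart.

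In the small subunit, PRPS10 had deposited intensities of 0.496 at the lowest, 0.538 at the median and 0.655 at the highest at normal CO2, and of 0.493, 0.540 and 0.642 at low CO2. The groups covered the same range, and the means were 0.550 ± 0.0622 and 0.548 ± 0.0505 (n = 6 each, ± SD). On this scale the log2 fold change was -0.00045 ± 0.11 (SE, limma adjusted p = 0.997). After quantile normalization the log2 values ran from -1.23 to -0.98 at normal and from -0.74 to -0.46 at low CO2. All 6 low CO2 samples then lay above all normal CO2 samples, which was also so for 12.3% of all probes, and low CO2 was the higher one for all 6 replicate numbers, as for 22.1%. The mean intensity of PRPS10 thus differed between groups by less than the SD, while the median of all probes was lower at low CO2, and its rise is one relative to them. It was the steadiest of the 4 genes, with a coefficient of variation of 11.3% at normal and 9.21% at low CO2.

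PRPS6 was much more variable. Its deposited intensities ran from 0.125 through a median of 0.264 to 0.327 at normal CO2 and from 0.133 through 0.274 to 0.309 at low CO2. The groups overlapped almost entirely, with coefficients of variation of 38.1% and 27.8%. By replicate number, the low CO2 sample was the higher one for numbers 1, 2 and 3 and the lower one for numbers 4, 5 and 6. On the deposited scale the log2 fold change was 0.10 ± 0.31 (SE, limma adjusted p = 0.806). After quantile normalization 4 of the 6 low CO2 samples lay above every normal CO2 sample, and low CO2 replicate 6, at -2.57, lay below the normal CO2 median of -2.45. The rise passed in 2 of the 12 limma fits that left out 1 sample, those without normal CO2 replicate 4 (adjusted p = 0.0177) and without low CO2 replicate 6 (adjusted p = 0.0148). It did not pass in the other fits, where adjusted p reached 0.0920, and with the replicate number as a block adjusted p was 0.0953, in a fit that 45.9% of all probes passed. The probe was dim, at the 30.9th percentile of mean normalized signal over all probes.

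In the large subunit, PRPL17 had deposited intensities of 1.07 at the lowest, 1.31 at the median and 2.04 at the highest at normal CO2, and of 0.531, 0.557 and 0.772 at low CO2. No low CO2 sample reached the lowest normal CO2 sample, a separation downward that 27.3% of all probes showed. The mean at low CO2 was 0.447 of that at normal CO2, and the log2 fold change on the deposited scale was -1.14 ± 0.18 (SE, limma adjusted p = 0.000298). After quantile normalization the log2 values still stood apart, with normal CO2 samples at -0.10 to 0.89 and low CO2 samples at -0.67 to -0.22, and 15.7% of all probes were separated downward on that scale. Low CO2 was the lower one for all 6 replicate numbers on both scales, as it was for 40.9% of all probes on the deposited scale and 25.4% after quantile normalization. The spread within groups was not even, since normal CO2 replicate 4 alone was at 2.04 and the other 5 lay between 1.07 and 1.41.

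PRPL34 behaved similarly on the deposited scale. Its intensities were 0.731, 0.869 and 1.15 at the lowest, median and highest at normal CO2, and 0.247, 0.401 and 0.583 at low CO2. The groups did not overlap, as was so downward for 27.3% of all probes. The mean at low CO2 was 0.470 of that at normal CO2, and the log2 fold change was -1.13 ± 0.20 (SE, limma adjusted p = 0.000766). After quantile normalization the separation was no longer complete, as 5 of the 6 low CO2 samples lay below every normal CO2 sample. Replicate number 5 then barely differed between groups, with a difference of -0.0049, while number 2 differed by -1.19. Leaving out low CO2 replicate 1 gave a limma adjusted p of 0.0504, and in the other 11 such fits PRPL34 passed.

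**Figure D2:**
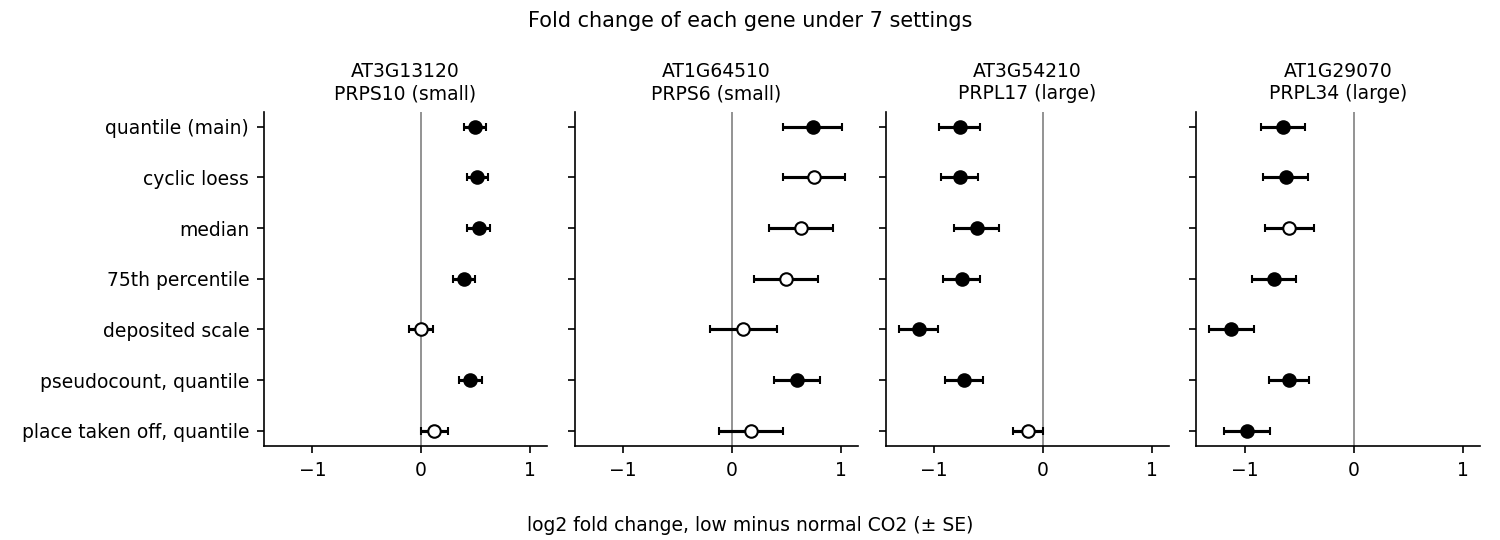
Log2 fold change of each gene (low minus normal CO2, ± SE of the limma fit, 6 samples per group) under 7 settings of scaling, zero handling and probe place. Filled points have an adjusted p under 0.05 and open points do not. The small subunit genes lie at or near 0 on the deposited scale. With the place of the probe taken off, PRPS10, PRPS6 and PRPL17 lie near 0 with open points, and PRPL34 alone is filled.

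A comparison of the subunits within an array does not move when that array is rescaled by a factor. For each array the mean log2 value of PRPL17 and PRPL34 was subtracted from that of PRPS10 and PRPS6. The large subunit gene AT4G01310, which did not pass and is described below, is not part of this difference. The size of this difference depends on the probes and is not read as a ratio of transcripts. Its change between groups is free of a factor of the array, but not of effects that differ between probes. With the place of the probe taken off, as described below, the change was 0.71 and the groups overlapped. On the deposited scale the difference averaged -1.64 ± 0.48 at normal CO2 and -0.45 ± 0.33 at low CO2 (n = 6 arrays each, ± SD). This is an upward shift of 1.18. The values ran from -2.23 to -1.08 and from -0.89 to 0.01 and did not overlap. After quantile normalization the shift was 1.33, again without overlap. On that scale 22.2% of all pairs of single genes had no overlap, a share that is not for means of 2 genes. On both scales the low CO2 sample was the higher one for all 6 replicate numbers, by 0.19 to 1.91 on the deposited scale. No share over all genes was computed for differences between means of 2 genes. No test is given for it, since the genes were chosen with their fold changes known.

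**Figure D3:**
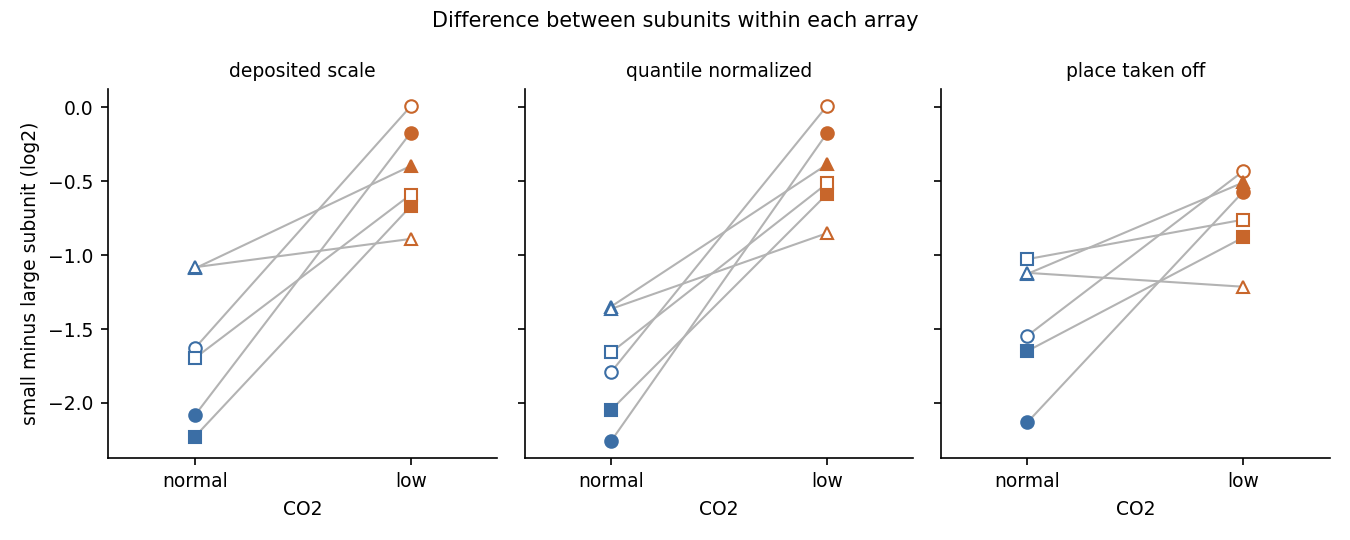
Mean log2 value of the 2 small subunit genes minus that of the 2 large subunit genes in each array, with grey lines joining samples of the same replicate number (symbols as in the plot of intensities). On the deposited and the quantile normalized scale the groups do not overlap, and with the place of the probe taken off they do.

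Single pairs of genes across the subunits shifted by similar amounts on the deposited scale. The shift there lay mostly with lower values of the large subunit genes. Their log2 fold changes were -1.14 for PRPL17 and -1.13 for PRPL34, against -0.00045 for PRPS10 and 0.10 for PRPS6. After quantile normalization the genes of both subunits changed, as given above. On the deposited scale PRPS10 minus PRPL17 shifted by 1.14 and PRPS10 minus PRPL34 by 1.12, and for both the groups did not overlap. For comparison, the groups did not overlap on that scale for 22.5% of all pairs of genes with a probe of their own. PRPS6 minus PRPL17 and PRPS6 minus PRPL34 shifted by 1.24 and 1.23, but here the groups overlapped and the low CO2 sample was the higher one for 5 of the 6 numbers. Within a subunit the pairs hardly shifted, by -0.10 for PRPS10 minus PRPS6 and by -0.02 for PRPL17 minus PRPL34, against SDs within groups of 0.49 and 0.41. Over the 12 normalized samples the profiles of the 2 large subunit genes had a root mean square difference of 0.39 on the log2 scale once each gene's mean was taken off. For the 2 small subunit genes it was 0.43, and for pairs across the subunits it was 0.66 to 0.90. This measure includes the change between groups, so that its order follows from the choice of genes and is no separate result.

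Fold changes on this array also differed with the number of the probe, when the numbering was folded into repeats of 288 numbers. This length was set as a 16th of the numbering, and no comparison with other lengths is given. The 4 genes were unevenly placed in the repeat. With the repeat divided into 48 bins, PRPS6 lay in a bin of 71 probes whose median log2 fold change was 0.56, and PRPS10 in a bin of 69 probes with a median of 0.42. PRPL17 lay in a bin of 69 probes with a median of -0.60. All 3 genes thus moved as the other probes of their bins did, with differences from the bin's median of 0.18, 0.08 and -0.16 in this order. PRPL34 went the other way, being lower by 0.97 than the median of 0.32 in its bin of 68 probes. After the median deviation of each bin had been removed from every sample, PRPL34 was at -0.98 ± 0.21 (SE, limma adjusted p = 0.00355), and its groups did not overlap, as was so downward for 10.4% of all probes. PRPS10 was then at 0.12 ± 0.13 (adjusted p = 0.471), PRPS6 at 0.17 ± 0.29 (adjusted p = 0.667) and PRPL17 at -0.14 ± 0.14 (adjusted p = 0.458). In that setting 37.5% of all probes passed. The shift between subunits was 0.71 and the groups overlapped. It then lay mostly with PRPL34, as PRPS6 minus PRPL34 shifted by 1.15 and PRPS6 minus PRPL17 by 0.31. The large subunit genes moved apart, as PRPL17 minus PRPL34 shifted by 0.85 with no overlap between groups, which 19.3% of all pairs of genes showed in that setting.

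**Figure D4:**
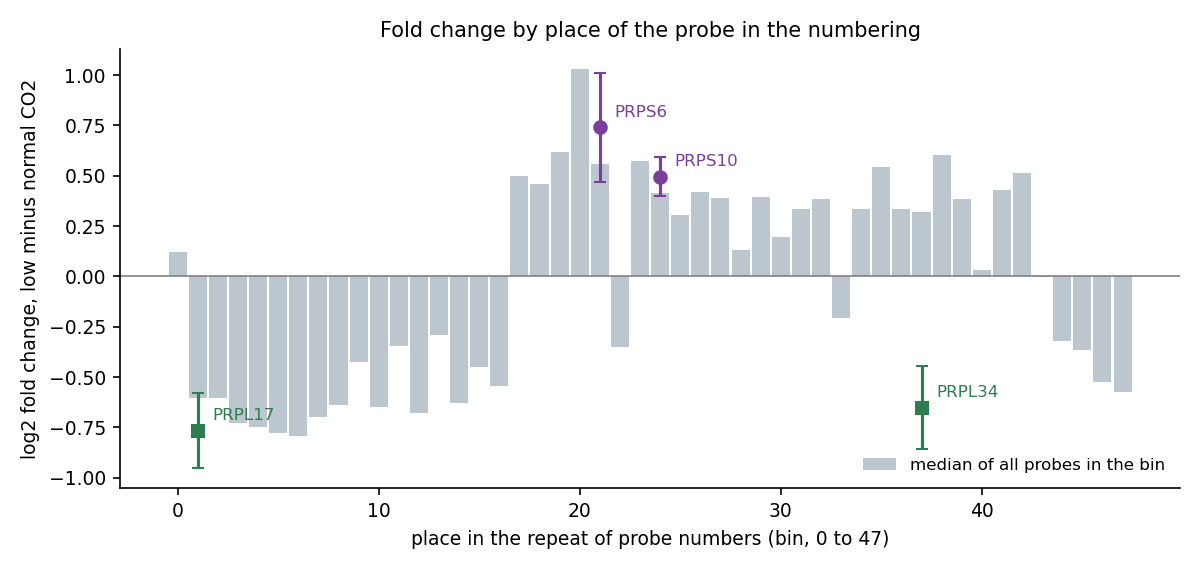
Median log2 fold change of all probes in each of the 48 bins along the repeat of the probe numbers (grey bars), with the fold changes of the 4 genes (± SE, n = 6 per group; circles small subunit, squares large subunit) at their bins. PRPS6, PRPS10 and PRPL17 lie on the side of 0 of their bins, and PRPL34 lies opposite to its bin.

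For all 12 samples, the most similar sample of the same group had the adjacent replicate number (1 and 2, 3 and 4, 5 and 6). The correlations of deviations from the group mean were higher for these pairs than for all other pairs within a group. They were 0.104, -0.005 and 0.437 at normal CO2 and 0.097, -0.077 and 0.042 at low CO2, in this order. Other pairs within a group were at -0.363 to -0.108. When adjacent samples were averaged, giving 3 values per group, none of the 4 genes passed by limma, with adjusted p of 0.116 for PRPS10, 0.105 for PRPS6, 0.0947 for PRPL17 and 0.153 for PRPL34. At an unadjusted p under 0.05, 3 of the 4 passed there, as did 36.3% of all probes, and 18.0% of all probes passed after adjustment. A limma fit with adjacent pairs as a random block put the consensus correlation within pairs at 0.567. The fit without a block leaves this likeness out. With the random block, PRPS10 (adjusted p = 0.0170) and PRPL17 (adjusted p = 0.0464) passed. PRPS6 (0.262) and PRPL34 (0.116) did not, and 29.3% of all probes passed. On the quantile normalized scale the 3 averages of the groups were separate for all 4 genes, as for 43.9% of all probes, and on the deposited scale they were separate for PRPL17 and PRPL34, as for 49.8% of all probes.

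Few other parts of the plastid translation machinery could be followed. Of 14 listed genes of small subunit proteins, PRPS10 and PRPS6 were the 2 measured by a probe of their own, and of 27 listed genes of large subunit proteins 4 were. The third large subunit gene, AT4G01310, encodes L5, which in bacteria contacts the smallest ribosomal RNA. Its deposited intensities were 0.371, 0.572 and 1.02 at the lowest, median and highest at normal CO2, and 0.336, 0.404 and 0.485 at low CO2. These groups overlapped, and it did not pass on either scale. Its log2 fold changes were 0.04 ± 0.29 after quantile normalization (SE, limma adjusted p = 0.926) and -0.55 ± 0.25 on the deposited scale (adjusted p = 0.0892). With the place of the probe taken off it was at 0.30 (limma adjusted p = 0.326). AT5G65220, which encodes L29 at the tunnel exit, was listed at 0 in 5 normal and in all 6 low CO2 samples, so that its change could not be measured.

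**Figure D5:**
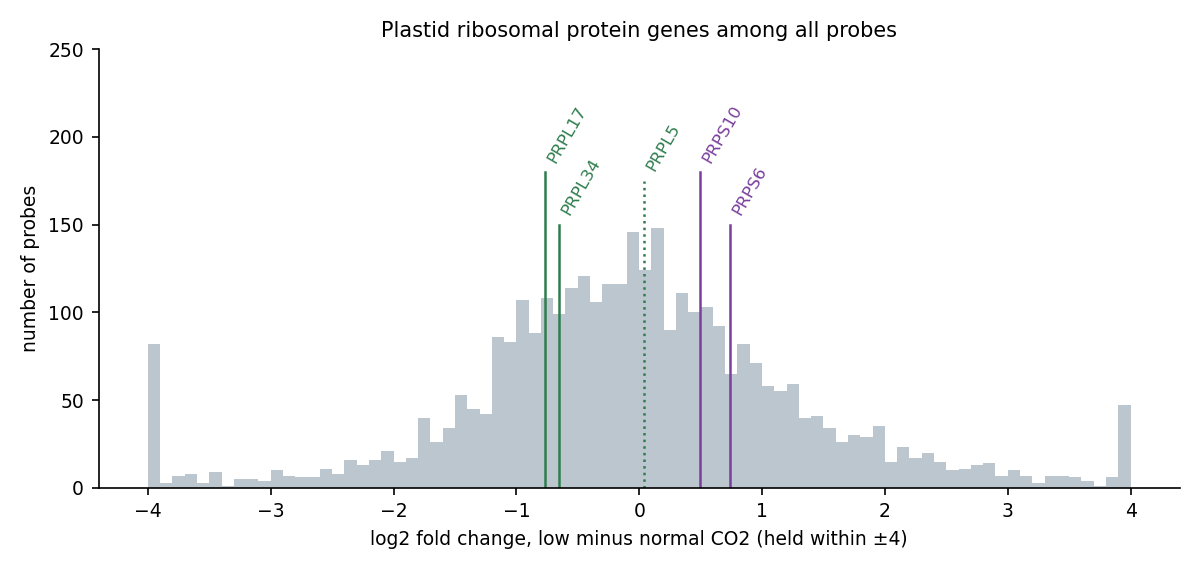
Distribution of the log2 fold changes of all 3439 probes after quantile normalization (bars of 0.1, with 116 probes beyond 4 drawn at the edges), with 5 plastid ribosomal protein genes marked (purple small subunit, green large subunit, dotted where not among the 4 described; AT5G65220, mostly at 0, is left out). The small subunit genes lie to the right of 0 (on the deposited scale PRPS10 is at -0.00045) and 2 large subunit genes to the left. Between 50.3% and 66.0% of all probes, depending on the gene, had a larger absolute fold change than the 4 genes.

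Of 18 listed organellar aminoacyl-tRNA synthetase genes, which charge the transfer RNAs, AT4G33760 alone had its own probe. This gene, for the aspartyl enzyme, was at 2.37, 2.67 and 3.44 at the lowest, median and highest at normal CO2 and at 2.79, 3.16 and 4.56 at low CO2. Its log2 fold change was 0.33 ± 0.16 (SE, limma adjusted p = 0.113), and with the replicate number as a block adjusted p was 0.0247. Adjusted p was 0.397 on averages of adjacent samples and 0.210 when these pairs were a random block. After removal of the place effect it was at 0.47 (adjusted p = 0.0171). No probe of a single gene stood for the 14 translation factors, 6 ribosome assembly factors and 8 plastid transcription genes listed, and these were not analysed here. Of 17 listed leaf photosynthesis genes 6 were measured, of which 2 rose and 3 fell relative to all probes, against 1 and 3 on the deposited scale. Relative to all probes, 18.9% of all probes rose and 23.5% fell, and on the deposited scale 373 and 1302 of the 3439 did. On averages of adjacent samples 0 of the 6 passed by limma, where 18.0% of all probes did. At an unadjusted p under 0.05 there were 4, and 36.3% of all probes. The root and seed genes listed were not analysed here, since none had a probe of its own.

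Among 501 other genes with a probe of their own and a mean signal above the 25th percentile, the nearest in profile to each gene were found by the root mean square difference of normalized log2 values over the 12 samples. For PRPS10 these were AT3G56290, AT1G02260 and AT1G73470, at 0.19, 0.20 and 0.21, where the median over the 501 genes was 0.60. For PRPS6 they were AT4G38040, AT3G56290 and AT1G50020, at 0.40, 0.40 and 0.41 against a median of 0.79, so that even its nearest profiles were about as far from it as PRPS10 was. For PRPL17 they were AT1G69910, AT1G15410 and AT2G44760, at 0.19, 0.21 and 0.22 against 0.66. For PRPL34 they were AT3G46950, AT2G36480 and AT5G43770, at 0.24, 0.25 and 0.25 against 0.66. The small subunit genes thus had AT3G56290 in common. Its deposited intensity averaged 0.663 ± 0.107 in the normal and 0.802 ± 0.0276 in the low CO2 samples (n = 6 each, ± SD), and after quantile normalization it rose by 0.73 ± 0.11 on the log2 scale (SE, limma adjusted p = 0.000311). That rise no longer passed once the probe's place was removed (0.13, adjusted p = 0.562).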

How the data were processed

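Total RNA of 12 samples was measured by array, and the grouping and replicate numbers come from the sample titles. The authors deposited linear intensity values from 0 up to 100. The correction and scaling behind them, and the array's genome build, were not given in the sources used here; no coordinates are printed. Probes were named from the platform annotation and matched to TAIR10.1 for names only. The genes, the lists of related genes and the alternatives were chosen with earlier results of these data known. Zeros, of which the 4 genes had none, took the lowest value above 0 on the same array before log2 and quantile normalization. All 3439 probes were fitted in R 4.3.3 by limma 3.58.1, using lmFit and then eBayes on 6 against 6 samples without a block. Two-sided p-values were adjusted over all probes by Benjamini-Hochberg, at a threshold of 0.05. The number of arrays limits the precision. The fit was tested on simulated data in which samples were independent and the probe's place had no effect. That test does not bear on the likeness of adjacent samples or on the probe's place. Samples of the same number in the 2 groups deviated together from their group means (correlations of 0.128 to 0.214). Each of the 12 samples was most like its own number in the other group. No label says what samples of the same number share. A fit with the number as a block was run as an alternative. The genes named were the 4 described, the other measured plastid ribosomal protein genes, up to 2 called genes per direction of each other pathway list, and the 3 nearest profiles of each gene. AT4G33760 did not pass and was named as the single measured gene of its list. Alternatives were other scalings, blocks, averages of adjacent numbers, a filter on dim probes, a pseudocount, prior variance settings, a smaller probe set, the probe's place within a 16th of the numbering, in 48 bins, and samples left out.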

Additional observations from a re-analysis of the deposited data

How the results depend on the processing

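The direction of each gene was the same in every alternative run, except PRPS10 on the deposited scale (-0.00045). The values of PRPS6 that no longer passed were 0.10 on the deposited scale, 0.63 with median scaling, 0.50 with the 75th percentile and 0.76 with cyclic loess. With the replicate block, pair averages (with or without that block), pairs as a random block or a trended, robust prior variance PRPS6 stayed at 0.74 and did not pass. PRPL34 did not pass at -0.59 with median scaling, nor at -0.65 with pairs as a random block. On pair averages, with or without the replicate block, PRPS10 (0.50), PRPL17 (-0.77) and PRPL34 (-0.65) did not pass. The replicate block changed no call of PRPS10, PRPL17 or PRPL34. With the place taken off, alone or with pair averages or the replicate block, PRPS10 (0.12), PRPS6 (0.17) and PRPL17 (-0.14) did not pass, and PRPL34 (-0.98) did not pass with pair averages. With 1 sample left out the fold changes ran from 0.46 to 0.54 for PRPS10, 0.61 to 0.90 for PRPS6, -0.85 to -0.64 for PRPL17 and -0.74 to -0.51 for PRPL34. Without numbers 1 and 2, PRPS6 (0.48), PRPL17 (-0.62) and PRPL34 (-0.45) did not pass. Without numbers 3 and 4, PRPS6 (0.71) and PRPL34 (-0.61) did not, nor did PRPS6 (1.03) without numbers 5 and 6. Of the 4 genes, 2 passed on the deposited scale, with median scaling, with pairs as a random block and without numbers 3 and 4. Of all 3439 probes, 1675, 1427, 1006 and 1538 passed there, in this order. With the place taken off 1 of the 4 genes passed (also with the replicate block), as without numbers 1 and 2. In these fits 1291, 1348 and 1004 probes passed. By limma 0 of the 4 genes passed on pair averages (3 at an unadjusted p under 0.05, as for 36.3% of all probes). Likewise 0 passed when these were run with the replicate block or with the place taken off. In each of these fits 1 had an unadjusted p under 0.05, for which no share over all probes was computed. With 1 sample left out 2 to 4 of the genes passed, and 1332 to 1425 of all probes. The shift between subunits was 0.71 with the place taken off, with or without pair averages, and 1.68 without numbers 5 and 6. With 1 sample left out it ran from 1.23 to 1.43. Over all probes, 1457 passed, 649 upward and 808 downward, against 373 and 1302 on the deposited scale. On pair averages 618 passed, with the replicate block as well 375, with the place taken off and pair averages 454, and 273 among the 692 probes of a single gene. Some of the fits had fewer samples or probes. The cause of these differences was not tested.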
